A study of Mus musculus with 16 samples.

Results

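The response of Wild Type (WT) plantaris muscle to mechanical overload was described from 8 libraries, chosen by their labels alone. These were the 4 libraries labelled Wild Type MTE and the 4 labelled Wild Type Sham, of 15 in the count table and 16 labelled samples. The plantaris is an ankle plantar flexor of the mouse hindlimb, and myotenectomy (MTE) is a surgery that takes a synergist tendon out of action so that the plantaris bears more of the load. The WT MTE group had this overload and the WT Sham group a sham surgery, both in mice 9 to 12 weeks old. The other 7 libraries, 4 KO MTE and 3 KO Sham, came from TRIM28 mKO muscle under the same surgeries. They entered the shared estimate of the spread and the test of whether the genotypes responded differently. The sources used here give neither the alleles or Cre of the WT mice nor the time between surgery and harvest. Nothing in the labels ties each library to its own mouse, and the p-values therefore cover only the spread between libraries, which may be technical.

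Skeletal muscle put under lasting overload is known to enlarge. Its fibres remodel the contractile lattice and its anchoring discs, satellite cells divide and fuse, and fibroblasts rebuild the collagen sheaths that carry force to the tendon. RNA was taken from pulverised whole muscle, so it holds the transcripts of fibres and of every other cell type of the tissue. In such bulk RNA, fewer cells of a type and less RNA per cell cannot be told apart.

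The total counts ran from 26.5 to 40.05 M per library in WT MTE and from 26.6 to 39.3 M in WT Sham, where M stands for 1000000 counts. One library stood apart. WT Sham 1 correlated with the other WT Sham libraries at 0.932 to 0.938 across genes (log2 scale), and those correlated with each other at 0.975 to 0.98. The 18 macrophage markers summed to 1511, 1686, 1925 and 1691 CPM (counts per 1000000 counts of the library, scaled by TMM) in WT MTE 1 to 4, against 3741, 386, 344 and 454 CPM in WT Sham 1 to 4. WT Sham 1 was thus above every overloaded library, and the other sham libraries were below all of them. Counts of called list members that move by over 1.5 times without this library are given both ways below, and so are named genes called without it and not with it. Trim28, the gene deleted in the other genotype, was at 60.9, 51.9, 47.3 and 35.3 CPM in WT MTE and 49, 27.8, 36.1 and 30.1 CPM in WT Sham and was not called (log2 fold change 0.45, adjusted p = 0.224). It ran from 18 to 30.3 CPM in KO MTE and from 5.39 to 12.7 CPM in KO Sham. Markers of the labelled tissue were present: Acta1, skeletal actin, ran from 4933 to 11889 CPM in WT MTE and from 4169 to 12325 CPM in WT Sham. All 15 fibre markers were detected, and 6 of them fell under overload, beside 11.2% of all genes tested (Myh4, Tnnt3, Actn3, Pygm, Ryr1 and Cacna1s).

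Of 17212 genes tested with edgeR's quasi-likelihood test, 2435 (14.1%) were called higher and 1920 (11.2%) lower in WT MTE at a Benjamini-Hochberg adjusted p under 0.05. All adjusted p below come from this test unless another is named. Counts of called list members below are to be read beside these shares of all genes. A count near them shows nothing particular to its list. The median log2 fold change over all genes tested was 0.036, so list medians below can be read against a value near 0. Changes of at least 2-fold were more often increases: 1485 genes (8.63%) were called at least 2-fold higher and 579 (3.36%) at least 2-fold lower. In 2359 genes (13.7%) every WT MTE library lay above every WT Sham library, and in 1892 genes (11.0%) every one lay below. Which direction held more calls depended on the scaling: RLE size factors gave 2146 higher and 2322 lower, DESeq2 2468 and 2673, and a stricter filter, 1 CPM or more in 8 or more libraries, 2018 and 2043. Among genes changed at least 2-fold, increases stayed the more frequent with each of these (1349 against 711, 1459 against 744, and 1110 against 507). With TMM scaling, protein-coding genes had more increases than decreases, with 2288 of 14242 higher and 1643 lower. The direction was the other way for long intergenic noncoding genes, with 42 of 436 higher and 66 lower, and for genes annotated as antisense, with 20 of 329 higher and 42 lower. The antisense counts are uncertain, because it is not given whether the counting used the strand. Without WT Sham 1, 3674 genes (21.4%) were called higher and 3021 (17.6%) lower, which is over 1.5 times as many in each direction. Where a call is said below to be lost without 1 library, the number of the 8 fits that do not call it is given, each fit leaving out 1 WT library, with the highest adjusted p among them.

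**Figure D1:**
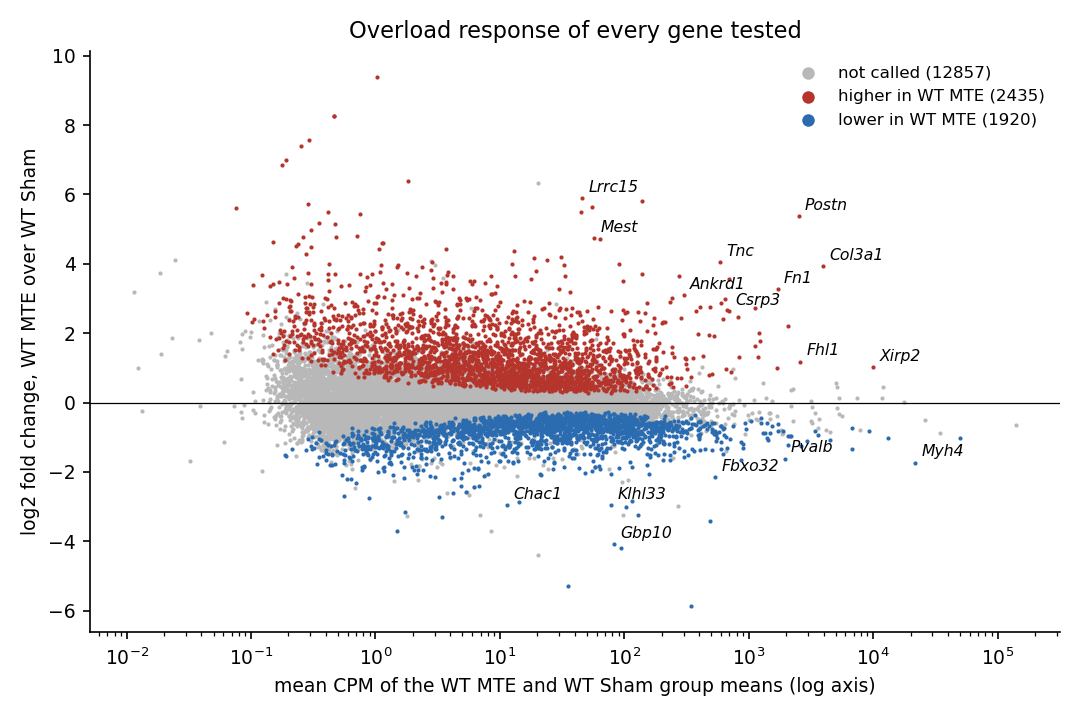
Every gene tested, with the mean CPM of the WT MTE and WT Sham group means on a log x axis and the log2 fold change of WT MTE over WT Sham on the y axis; red points were called higher (2435), blue points lower (1920) and grey points not called. The highest red points at high expression are matrix genes such as Postn and Col3a1, and the labelled blue point farthest to the right is the fast myosin gene Myh4.

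Ranked by CPM gained or lost, matrix genes led the gains and genes of fast fibres the losses. CPM are not scaled to gene length, so this ranking describes which genes supplied the reads. The genes called and not overlapping between groups that gained the most CPM were Col3a1, Postn, Fn1, Col1a2 and Fhl1, and those that lost the most were Myh4, Atp2a1, Tnnt3, Aldoa and Cmya5. Myh4, the myosin heavy chain of the fastest fibres, had 13134, 7378, 10877 and 9022 CPM in WT MTE 1 to 4 and 32413, 36281, 32926 and 32696 CPM in WT Sham 1 to 4. Its groups did not overlap (log2 fold change -1.73, SE 0.23, adjusted p = 1.78e-04). Collagen chain genes took 2.22, 3, 2.14 and 0.965 percent of all counts in WT MTE 1 to 4 and 0.323, 0.165, 0.157 and 0.284 percent in WT Sham 1 to 4. Every overloaded library was above every sham library, and the means, 2.08 ± 0.84% and 0.232 ± 0.084% (SD, n = 4 each), differed 8.96-fold (exact two-sided permutation p = 0.0286, the smallest that 70 arrangements allow). With any 1 WT Sham library left out the groups still did not overlap, but the difference missed the threshold (exact permutation p = 0.0571 each time). The 20 adult fast fibre genes took 8.98, 7.34, 8.25 and 7.55 percent in WT MTE and 12.6, 9.6, 10.9 and 9.74 percent in WT Sham, again without overlap (exact permutation p = 0.0286). The share of cytoskeleton and tubulin genes was 1.32 ± 0.154% in WT MTE and 0.743 ± 0.24% in WT Sham (SD, n = 4 each; exact permutation p = 0.0286). Mitochondrially encoded genes took 6.21, 8.97, 7.25 and 8.77 percent in WT MTE and 6.95, 13.3, 14.4 and 14.1 percent in WT Sham. Here the groups overlapped through WT Sham 1, and the difference missed the threshold (exact permutation p = 0.114). The 15 fibre markers took 21.1, 17, 21.4 and 25.9 percent in WT MTE and 27.8, 30.6, 22.6 and 25.4 percent in WT Sham. These groups overlapped too, and the difference missed the threshold (exact permutation p = 0.0857). So did the glycolysis and lactate share (exact permutation p = 0.2) and the share of small leucine-rich proteoglycans (exact permutation p = 0.0571). The call of Aldoa (6 of 8 fits, adjusted p = 0.113 without WT MTE 2) did not hold without 1 library.

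**Figure D2:**
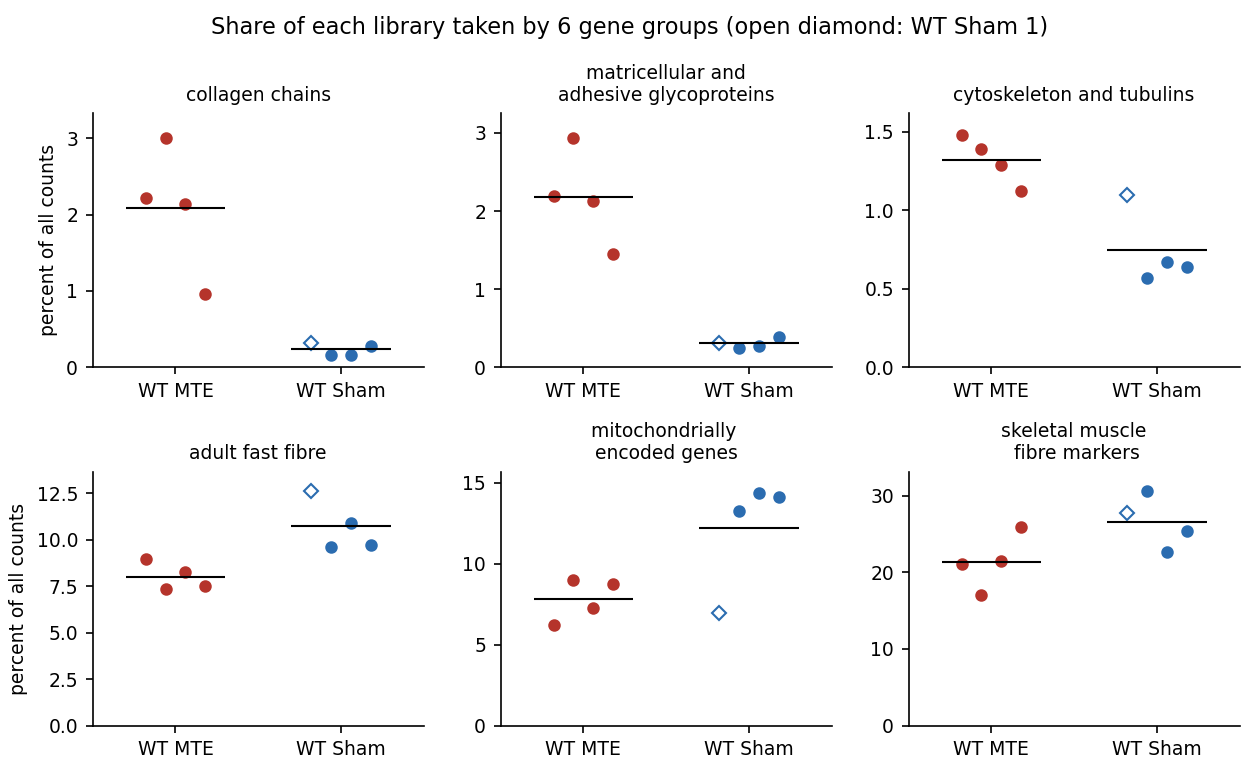
Percent of all counts in each WT library taken by 6 gene groups (y axes, percent, from 0), with WT MTE left of WT Sham; points are libraries, the open diamond is WT Sham 1 and lines are group means. Collagen, glycoprotein, cytoskeleton and fast fibre shares do not overlap between the groups. The mitochondrially encoded share overlaps through WT Sham 1, and the fibre marker share overlaps as well.

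Collagen chains rose as a broad set, led in log2 fold change by Col3a1, Col8a1 (3.70) and the type V chains Col5a1 and Col5a2. Of 40 chain genes tested, 25 rose and 2 fell, with a median log2 fold change of 1.34. Col3a1 (ENSMUSG00000026043, chromosome 1, 45311538 to 45349706, GRCm38), the main chain of type III fibrils, was at 7296, 10373, 8405 and 3727 CPM in WT MTE and 875, 404, 255 and 421 CPM in WT Sham. The groups did not overlap, and WT MTE 4 was the lowest overloaded library (log2 fold change 3.93, SE 0.45, adjusted p = 5.64e-05). The type I chains Col1a1 and Col1a2 rose less, with log2 fold changes of 2.71 (adjusted p = 0.0109) and 2.22 (0.00727). Type V chains, which seed and limit fibril width, rose together, with log2 fold changes of 3.65 for Col5a1, 3.57 for Col5a2 and 2.17 for Col5a3. Col12a1 and Col14a1, which decorate fibrils and are prominent in tendon and its junction with muscle, had 2.66 and 2.87. The beaded-filament chains Col6a1, Col6a2 and Col6a3 lay at 2.44, 2.58 and 2.77, and the basement membrane chains Col4a1 and Col4a2 at 1.32 and 1.35. The 2 chains that fell were Col4a3 (1.25 ± 0.362 CPM in WT MTE, 3.81 ± 0.489 CPM in WT Sham, SD, n = 4 each) and Col9a1, a cartilage chain (1.75 ± 0.268 CPM in WT MTE, 4 ± 1.32 CPM in WT Sham). Leaving out 1 library ended the calls of Col4a1 (4 of 8 fits, adjusted p = 0.0684 without WT Sham 2), Col4a2 (1 of 8 fits, adjusted p = 0.0518 without WT Sham 2) and Col9a1 (1 of 8 fits, adjusted p = 0.0513 without WT Sham 2).

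Enzymes that fold, hydroxylate and crosslink collagen moved the same way. Of 30 tested, 24 rose and 0 fell (median log2 fold change 1.79). P3h1, a prolyl 3-hydroxylase, had the smallest adjusted p of the list (2.90e-05), with 34.5, 42.4, 34.7 and 25 CPM in WT MTE and 9.23, 6.32, 8.26 and 7.92 CPM in WT Sham, without overlap. Plod2, the lysyl hydroxylase of the collagen telopeptides that sets the crosslink type, rose 6.72-fold (log2 fold change 2.75, SE 0.30), more than Plod1 (1.13) or Plod3 (1.30). Lox, lysyl oxidase, which starts crosslinks, was at 704 ± 162 CPM in WT MTE and 105 ± 44 CPM in WT Sham (SD, n = 4 each). Its relatives Loxl1, Loxl2 and Loxl3 had log2 fold changes of 2.62, 2.62 and 1.97. Serpinh1, the collagen chaperone Hsp47, rose with 2.58, and P4ha3, a prolyl 4-hydroxylase subunit, with 3.46. In the general secretory machinery, of 46 endoplasmic reticulum folding and transport genes, 29 rose and 1, Herpud1, fell, with a median of 0.74. Without WT Sham 1, 3 of these genes and 2 of the processing enzymes fell. Fkbp11, a prolyl isomerase of secretory cells (3.60), Kdelr3, a retrieval receptor (2.90), Rcn3, a calcium-binding protein of the reticulum (2.73), and Sec24d, a coat protein needed to export procollagen (1.80), had larger increases than the chaperones Hspa5 (0.75) and Hsp90b1 (0.71). Not all calls held without 1 library, the exceptions being Plod1 (6 of 8 fits, adjusted p = 0.0928 without WT Sham 2) and Plod3 (6 of 8 fits, adjusted p = 0.0999 without WT Sham 2).

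Matricellular and adhesive glycoproteins, which bind cells and growth factors to collagen, had the highest median log2 fold change of the lists examined with all 8 libraries. Of 40 tested, 29 rose and 0 fell (median 1.98). The median without WT Sham 1 was 2.08, below mitosis genes (2.28) and macrophage markers (2.10). Postn, periostin, had 3869, 7419, 5406 and 3040.0 CPM in WT MTE 1 to 4, against 75, 201, 79.6 and 122 CPM in WT Sham 1 to 4. The lowest overloaded library held more than the highest sham library (log2 fold change 5.37, SE 0.45, adjusted p = 5.33e-06), and WT Sham 1 was the lowest sham library. Tnc, tenascin C, a hexameric glycoprotein of loaded tendon junctions, was at 1408, 1244, 804 and 963 CPM in WT MTE and 40.7, 72.2, 51.2 and 104 CPM in WT Sham (log2 fold change 4.04, SE 0.49, adjusted p = 8.46e-05). Fn1, fibronectin, rose 9.71-fold and Vcan, the large proteoglycan versican, 7.47-fold. Has1 and Has2, which make hyaluronan, had log2 fold changes of 3.68 and 2.35. Among elastic fibre genes, Fbn2, fibrillin 2, known as the fetal form, rose more (4.12, SE 0.37) than Fbn1 (2.47, SE 0.23), and elastin itself, Eln, had 1.71. Thrombospondins 1 to 4 all rose, with 1.95 for Thbs1, 2.88 for Thbs2, 2.51 for Thbs3 and 1.63 for Thbs4. The small leucine-rich proteoglycans were divided: of 13, Aspn (3.02), Bgn, biglycan (2.64), Lum, lumican (1.79), and Podnl1 (2.77) rose, Omd fell (-1.56) and the rest were not called. Without WT Sham 1, 5 rose and 2 fell, and the median turned (-0.22 without it and 0.15 with it). Dcn, decorin, was at 819, 983, 1269.5 and 787 CPM in WT MTE and 706, 1088, 1232 and 1685 CPM in WT Sham, overlapping and not called (adjusted p = 0.405). Lost on leaving out 1 library was the call of Omd (6 of 8 fits, adjusted p = 0.26 without WT Sham 4).

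Matrix proteases and their inhibitors rose side by side. Of 48 tested, 28 rose and 2 fell. Adam12, a metalloprotease of regenerating muscle and activated fibroblasts, was at 133, 174, 114 and 75.5 CPM in WT MTE and 4.26, 5.25, 3.14 and 6.08 CPM in WT Sham (log2 fold change 4.72, adjusted p = 3.81e-06), and all overloaded libraries lay above all sham libraries. The gelatinase Mmp2 had a log2 fold change of 2.32 and its membrane activator Mmp14 one of 2.65. The ADAMTS family proteases Adamts4, Adamts16 and Adamts15 had 3.42, 3.47 and 1.75. Plat, tissue plasminogen activator, rose 4.3-fold. The tissue inhibitors differed in direction: Timp1 rose (log2 fold change 3.96, SE 0.50) and Timp2 rose (0.84, SE 0.23), while Timp3 fell (-0.95, SE 0.21) and Timp4 fell (-0.99, SE 0.30). Timp3 had 183, 162, 117 and 164 CPM in WT MTE and 194, 387, 326 and 306 CPM in WT Sham, and no library of one group reached the other. At least 1 fit without 1 library lost the calls of Timp2 (2 of 8 fits, adjusted p = 0.0589 without WT MTE 2) and Timp4 (3 of 8 fits, adjusted p = 0.0852 without WT MTE 2).

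Markers of connective tissue cells were set beside these values. Of 13 fibro-adipogenic progenitor markers, 6 rose and 1, Gsn, fell, and their summed level was 1573, 1725, 1715 and 1136 CPM in WT MTE and 1365, 1149, 1513 and 1399.9 CPM in WT Sham. The sums overlapped: Pdgfra, the defining receptor of these cells, had a log2 fold change of 0.75 (SE 0.14), and Dpt one of 1.499. Of 12 tendon cell markers 4 rose, among them the tendon transcription factor Scx (1.77), while Tnmd, tenomodulin, was not called (52.1, 75.3, 68.6 and 17.8 CPM in WT MTE, 8.32, 24, 24.4 and 73.9 CPM in WT Sham). Their summed level was 3067, 1798, 2262 and 2450.3 CPM in WT MTE and 695, 1117, 1165 and 1628 CPM in WT Sham, and Thbs4 supplied most of it in each WT MTE library. In the cartilage and bone list 3 of 10 rose and 1, Col9a1, fell, with a median of -0.64. Acan, aggrecan (2.89), the chondrocyte factor Sox9 (1.54) and Runx2 (1.25) rose, while Col2a1, the main cartilage collagen, was not called (2.59 ± 1.32 CPM in WT MTE, 5.02 ± 4.03 CPM in WT Sham, SD, n = 4 each). Whether the amount of tendon or sheath in each sample played a part in the matrix increases was not tested. The calls of Gsn (5 of 8 fits, adjusted p = 0.0949 without WT Sham 3), Col9a1 (1 of 8 fits, adjusted p = 0.0513 without WT Sham 2), Acan (4 of 8 fits, adjusted p = 0.0751 without WT Sham 2) and Runx2 (7 of 8 fits, adjusted p = 0.13 without WT Sham 3) did not hold without 1 library.

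Receptors and signals of the connective tissue were examined next. Itga5, the fibronectin receptor subunit, rose (1.83, adjusted p = 0.00967), as did Itga11, a collagen receptor subunit of fibroblasts (1.51), Itgav (0.66), Itgb1 (0.83) and Itgax, a subunit of leukocytes (2.82), which makes 5 of 27 integrin genes with all 8 libraries and 13 without WT Sham 1 (medians 0.14 and 0.63). In the TGF-beta family, Ltbp2, a latent TGF-beta binding protein (4.16), Gdf6, a bone morphogenetic ligand (3.46), and Fstl1 (2.99) led the 13 of 53 genes that rose, and 7 fell. Over all genes tested 14.1% were higher and 11.2% lower, and the lower count was near that share. Among ligands Tgfb3 rose (0.98), whereas Tgfb1 was at 5.6, 5.24, 4.77 and 4.64 CPM in WT MTE and 6.62, 1.8, 1.93 and 1.85 CPM in WT Sham and was not called (adjusted p = 0.2). The receptor Tgfbr2 rose (1.28). Genes that fell included the myostatin and activin receptors Acvr2b (-0.83), Acvr2a (-0.59) and Acvr1b (-0.80), the signal carriers Smad3 (-0.51) and Smad4 (-0.39), and the ligand Bmp6 (-0.91). Mstn, myostatin, the inhibitor of muscle growth, was at 25.4, 25.4, 27 and 28.1 CPM in WT MTE and 40.6, 101, 102 and 96.5 CPM in WT Sham. Its groups did not overlap (log2 fold change -1.68, SE 0.33, adjusted p = 0.00211). The TGF-beta family without WT Sham 1 had 17 higher and 11 lower. In the Wnt list 15 of 38 rose and 3 fell. The secreted antagonists Sfrp1 (3.65), Sfrp2 (3.35) and Dkk3 (2.51) rose, as did Lgr5, a receptor for R-spondins (3.83), and Rspo2 (3.06), while Axin2, a widely used target of the canonical pathway, fell (-0.73). Leaving out 1 library ended the calls of Acvr2b (2 of 8 fits, adjusted p = 0.0568 without WT Sham 3), Acvr2a (6 of 8 fits, adjusted p = 0.0823 without WT Sham 2), Smad4 (5 of 8 fits, adjusted p = 0.0784 without WT Sham 2) and Axin2 (4 of 8 fits, adjusted p = 0.0633 without WT Sham 3). Not called with all 8 libraries but called without 1 was Tgfb1 (log2 fold change 1.40, adjusted p = 0.00125 without WT Sham 1).

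**Figure D3:**
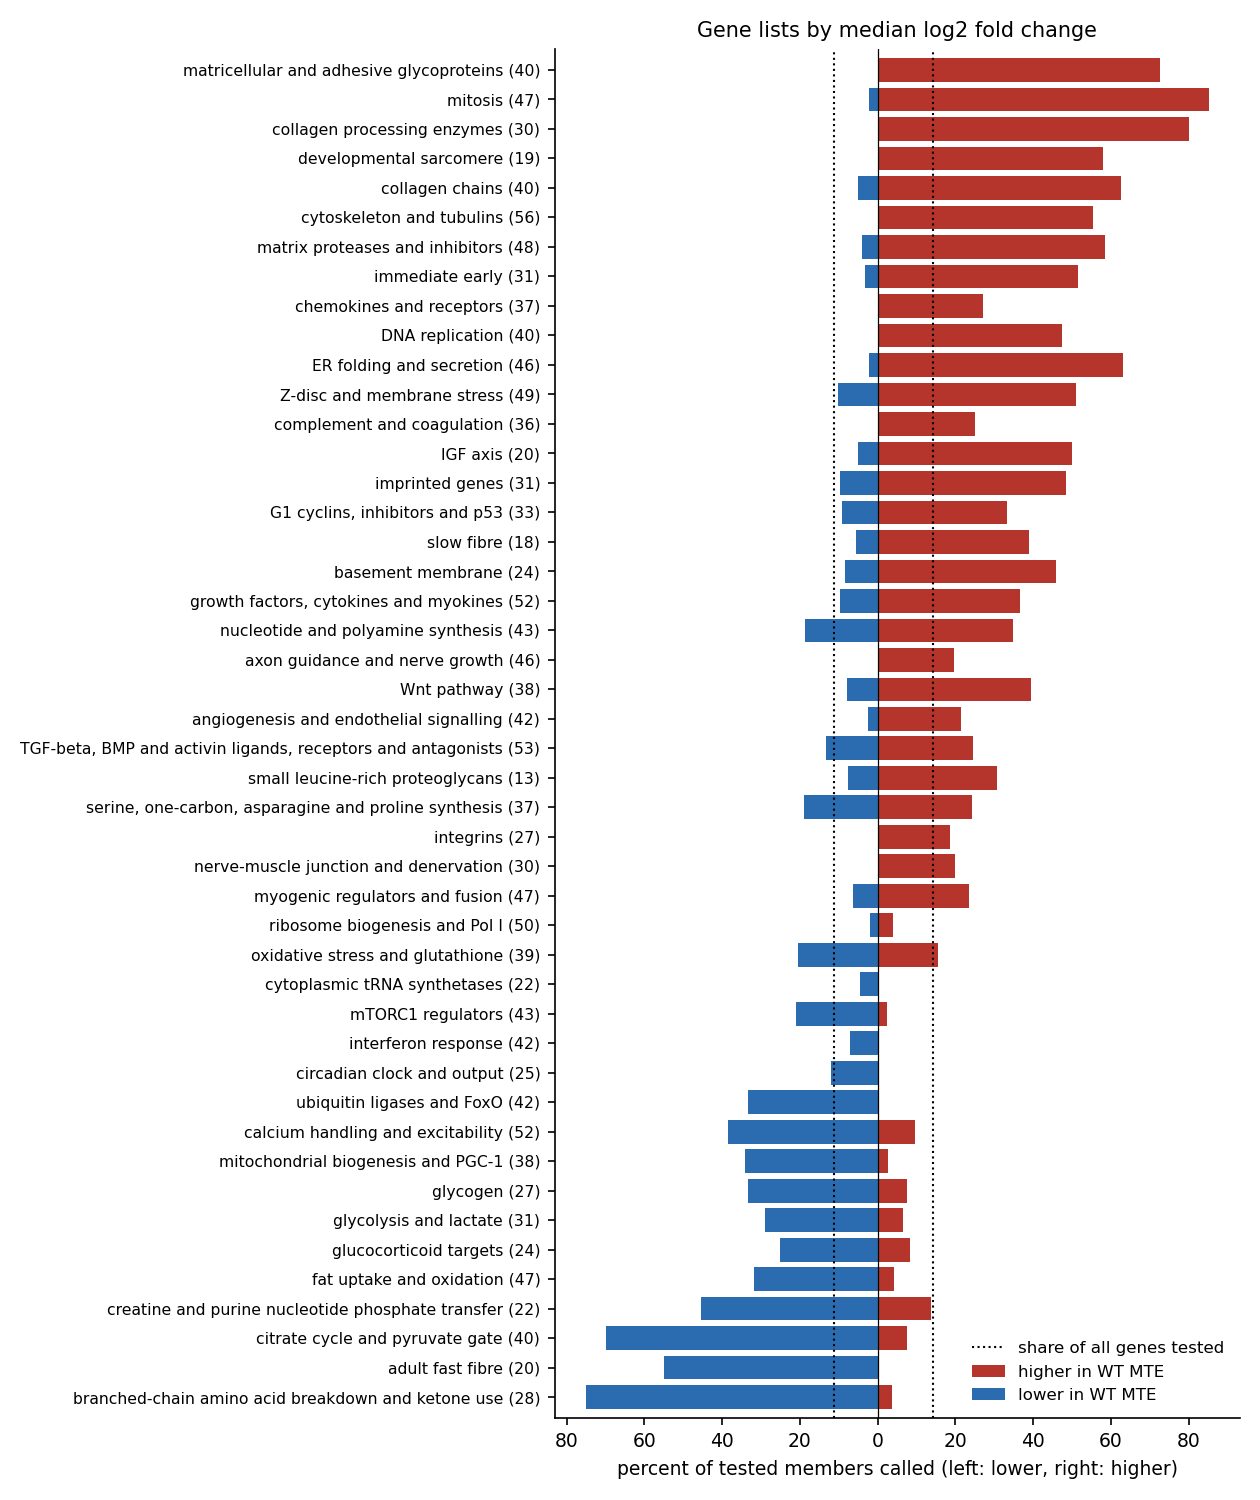
Percent of tested members called in each gene list (x axis; blue to the left, lower in WT MTE; red to the right, higher in WT MTE), ordered by median log2 fold change from top to bottom, with the number tested in parentheses. Dotted lines are the shares over all genes tested, 14.1% higher and 11.2% lower. Matrix and mitosis lists stand at the top and branched-chain amino acid breakdown at the bottom.

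**Figure D4:**
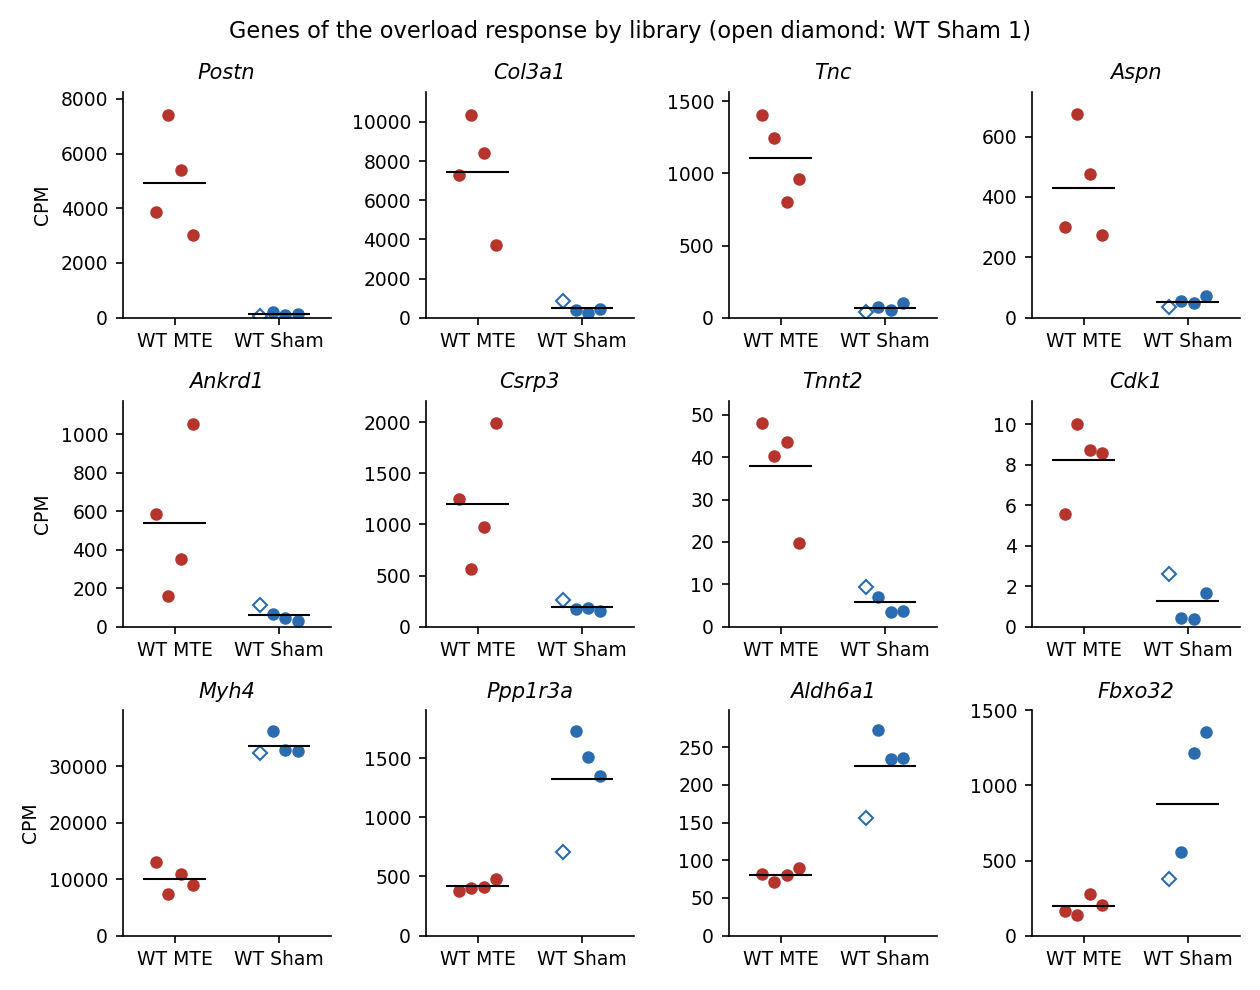
CPM of 12 genes in each WT library (y axes linear from 0), with WT MTE left of WT Sham; points are libraries, the open diamond is WT Sham 1 and lines are group means. In each panel the 4 WT MTE libraries lie wholly above or wholly below the 4 WT Sham libraries.

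Z-disc and membrane stress genes, not all of them particular to fibres, had 25 of 49 higher and 5 lower (median 0.72). Ankrd1 (ENSMUSG00000024803, chromosome 19, 36111961 to 36120099, GRCm38), an ankyrin repeat protein bound to titin, was at 586, 162, 349.9 and 1055 CPM in WT MTE and 110.1, 67.3, 45.5 and 27.4 CPM in WT Sham, so that the lowest overloaded library exceeded the highest sham library (log2 fold change 3.10, SE 0.56, adjusted p = 0.00125). Csrp3, the muscle LIM protein, was at 1252, 560.0, 978 and 1990.0 CPM in WT MTE and 266, 170.2, 179 and 153 CPM in WT Sham, also without overlap. Fhl2, a LIM protein of heart and slow muscle, rose 8.2-fold, and Fhl1, its skeletal relative, 2.26-fold. Small heat shock proteins that guard the sarcomere rose in parallel, with log2 fold changes of 2.24 for Hspb1, 1.92 for Hspb7, 1.33 for Cryab and 0.97 for Hspb8, as did Flnc, filamin C (1.78), and the Xin repair proteins Xirp1 (1.97) and Xirp2 (1.02). Annexins that patch torn membrane rose as well, Anxa2 by 1.55, Anxa5 by 1.30 and Anxa1 by 1.03 on the log2 scale. Bulk RNA does not show which cells supplied the reads of Hspb1 and the annexins. Anxa2 was at 178 CPM in WT Sham 1 and at 56.6 to 69.1 CPM in the other sham libraries. Genes that fell instead included Klhl33 (-2.95), Klhl31 (-1.31), the intermediate filament synemin, Synm (-0.99), and Myoz3 (-0.73). Dmd, dystrophin, was not called (891, 698, 930.2 and 1267 CPM in WT MTE, 1125, 1624, 1311 and 1239.6 CPM in WT Sham). Nppa, a natriuretic peptide gene known as a stress reporter of heart muscle, had 4, 6, 18 and 3 counts in WT MTE 1 to 4 and 1, 1, 0 and 0 counts in WT Sham 1 to 4 (adjusted p = 0.0214). Not all calls held without 1 library, the exceptions being Cryab (3 of 8 fits, adjusted p = 0.0596 without WT Sham 2), Hspb8 (3 of 8 fits, adjusted p = 0.0642 without WT Sham 4), Xirp2 (7 of 8 fits, adjusted p = 0.208 without WT MTE 4), Anxa1 (3 of 8 fits, adjusted p = 0.066 without WT Sham 3), Myoz3 (4 of 8 fits, adjusted p = 0.102 without WT Sham 2) and Nppa (2 of 8 fits, adjusted p = 0.0607 without WT Sham 4).

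Proximal promoters of 4 genes that rose, 3 of fibres and 1 (Ccn1) of the mechanically responsive matricellular class, are shown because they hold the letters CATTCC, the core of the M-CAT element to which TEAD factors bind. Each runs from 250 bases before to 50 bases after the RefSeq start site, 5′ to 3′ on the gene's strand (GRCm38.p6), and capitals mark CATTCC or its reverse complement GGAATG.
Ankrd1 promoter (chr19:36119795-36120094, minus strand): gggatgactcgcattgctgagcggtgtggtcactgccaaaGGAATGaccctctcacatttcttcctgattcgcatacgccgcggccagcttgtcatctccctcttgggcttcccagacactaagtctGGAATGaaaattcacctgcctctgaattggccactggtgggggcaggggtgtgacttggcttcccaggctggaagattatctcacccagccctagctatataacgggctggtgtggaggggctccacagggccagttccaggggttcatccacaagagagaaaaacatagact
Hspb7 promoter (chr4:141420529-141420828, plus strand): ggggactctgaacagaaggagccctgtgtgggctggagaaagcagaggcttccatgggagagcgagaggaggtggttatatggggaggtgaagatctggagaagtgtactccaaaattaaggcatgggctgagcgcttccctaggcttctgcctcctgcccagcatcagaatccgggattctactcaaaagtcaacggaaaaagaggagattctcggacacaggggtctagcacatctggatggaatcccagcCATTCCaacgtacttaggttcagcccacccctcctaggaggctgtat
Tnnt2 promoter (chr1:135836084-135836383, plus strand): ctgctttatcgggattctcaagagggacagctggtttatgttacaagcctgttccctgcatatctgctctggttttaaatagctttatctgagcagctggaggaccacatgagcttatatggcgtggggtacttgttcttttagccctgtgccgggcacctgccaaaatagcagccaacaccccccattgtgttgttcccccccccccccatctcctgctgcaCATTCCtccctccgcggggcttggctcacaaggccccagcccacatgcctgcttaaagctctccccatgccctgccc
Ccn1 promoter (chr3:145649936-145650235, minus strand): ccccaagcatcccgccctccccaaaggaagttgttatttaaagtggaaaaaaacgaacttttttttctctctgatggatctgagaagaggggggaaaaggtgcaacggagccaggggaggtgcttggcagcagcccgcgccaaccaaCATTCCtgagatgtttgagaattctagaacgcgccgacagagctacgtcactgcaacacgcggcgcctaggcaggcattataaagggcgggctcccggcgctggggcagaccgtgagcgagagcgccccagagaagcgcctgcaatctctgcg
Ankrd1 holds the motif at 2 places and each of the other 3 promoters at 1. Of the 25 Z-disc and membrane stress genes that rose, 20 had an entry in the promoter table, and 8 of these (40%) held the motif on either strand in the first listed promoter. For all tested members of the list the count was 11 of 41 (26.8%). The background was 14.7% of all promoters of this length in the table. It counts every entry, of tested and untested genes, and not only the first listed promoter of each gene. In the lists of the other promoters shown, the motif was in 3 of 10 developmental sarcomere genes that rose (30%). For all tested members of that list the count was 5 of 16 (31.25%). Of matricellular genes that rose, 3 of 18 held it (16.7%), beside 12% of all tested members. Of citrate cycle genes that fell, 1 of 25 held it (4%), beside 5.71% of all tested members. No other motif was searched, and these counts describe the letters and not binding. The TEAD genes themselves differed: Tead2 (1.74), Tead3 (1.04) and Tead4 (0.93) rose, and Tead1 was not called (109.7, 107, 73.3 and 108 CPM in WT MTE, 106, 156, 109.6 and 94.4 CPM in WT Sham). The coactivator Wwtr1 (TAZ) rose (0.59), and Yap1 was not called (81, 58.5, 61.4 and 79.4 CPM in WT MTE, 63, 67.2, 67.3 and 64.2 CPM in WT Sham). The TEAD and YAP target genes Ccn1 and Ccn2 rose, by 1.59 and 1.43 on the log2 scale. Lost on leaving out 1 library were the calls of Tead3 (3 of 8 fits, adjusted p = 0.0552 without WT MTE 1), Tead4 (5 of 8 fits, adjusted p = 0.0846 without WT Sham 4) and Wwtr1 (1 of 8 fits, adjusted p = 0.0659 without WT MTE 2).

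Many muscle proteins exist in an adult muscle form and in a second form, so pairs of such genes were compared within each library. The second form is developmental, used broadly in other cells or, in some pairs, that of slow or cardiac muscle. Examples of the last are Tnni1, Tnnc1 and Casq2, paired with Tnni2, Tnnc2 and Casq1. In those examples both forms are used in adult skeletal muscle. For 39 pairs the log2 ratio of the second form to the adult muscle form was computed from CPM plus 0.5. For genes of few reads, the added 0.5 makes this ratio depend on how libraries are scaled. The ratio was higher in WT MTE in 28 pairs and lower in 0 (exact two-sided permutation test over 4 against 4 libraries, adjusted p = 0.0398 for each of the 28, Benjamini-Hochberg over 39 pairs). In each of these pairs the 4 overloaded libraries lay above the 4 sham libraries, which gives the smallest exact p possible (0.0286). The pairs were chosen with earlier results of these data known, so the count of 28 against 0 is not an independent test. With 0.1 or 2 CPM added in place of 0.5, 28 and 30 pairs were higher. Taken gene by gene with adjustment over all genes tested, 19 of the 39 adult forms fell and 20 of the 39 other forms rose. Over all genes tested these shares were 11.2% and 14.1%. In 11 pairs both happened, in 6 only the adult form fell and in 9 only the other form rose. In 10 neither was called, in 2 both forms fell, and in 1, Ldhb beside Ldha, only the heart form of lactate dehydrogenase fell. Without any 1 WT MTE library 19 to 21 pairs had an unadjusted exact p under 0.05, 0 passed the adjustment and the mean ratio was higher in 36 to 37 pairs. With 35 arrangements at least 23 pairs at the smallest p would be needed to pass. Without 1 WT Sham library 23 to 30 pairs passed. The calls on single genes and the ratio use the same libraries, so they do not count as separate support.

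**Figure D5:**
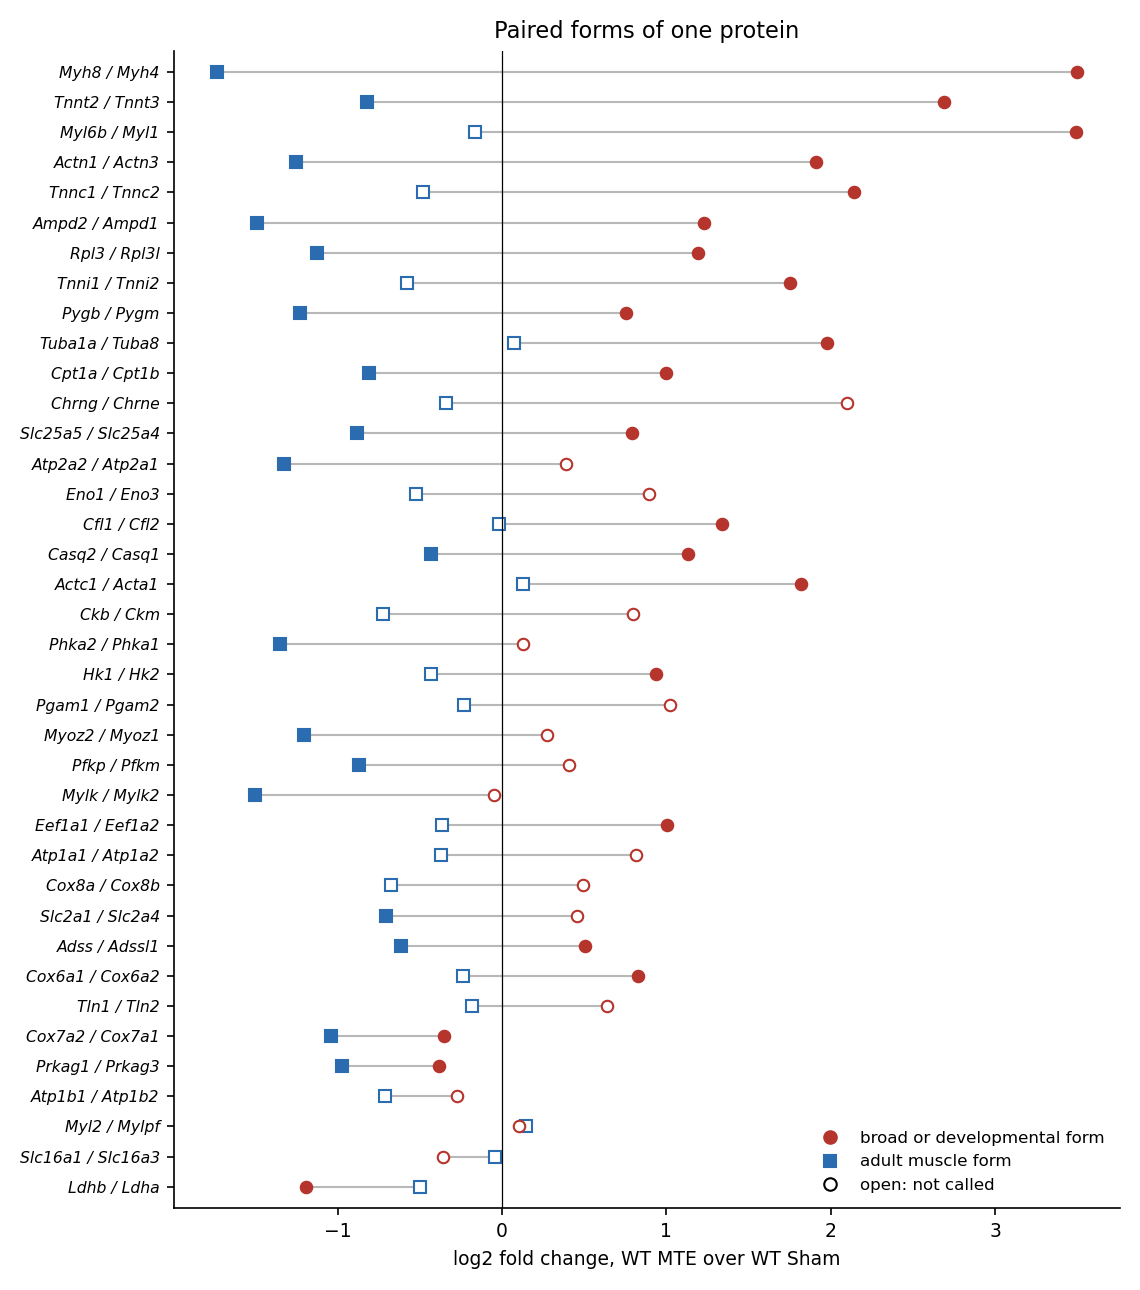
Log2 fold changes (x axis, WT MTE over WT Sham) of the 2 members of each of 38 of the 39 pairs, ordered by the change in their ratio. Red circles are the second form (broad or developmental in the legend, in some pairs slow or cardiac). Blue squares are the adult muscle form, and open symbols were not called. In 27 of the pairs drawn the ratio of red to blue was higher in WT MTE with no overlap between groups.

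Sarcomere pairs are given first. Myh8, the perinatal myosin, was at 212, 201, 217 and 87.3 CPM in WT MTE and 20.6, 23.5, 10.4 and 8.92 CPM in WT Sham beside the fall of Myh4, although myosin genes share reads with each other and these values are uncertain. Tnnt2, cardiac troponin T, which is also the embryonic form of skeletal muscle, was at 48, 40.4, 43.6 and 19.7 CPM in WT MTE and 9.31, 7.03, 3.35 and 3.79 CPM in WT Sham, while Tnnt3, the adult fast form, fell (log2 fold change -0.82, SE 0.19). The log2 ratio of Tnnt2 to Tnnt3 was -7.52 ± 0.77 in WT MTE and -10.96 ± 0.92 in WT Sham (SD, n = 4 each). The slow troponins Tnni1 and Tnnc1 rose (1.75 and 2.14). Their fast partners Tnni2 and Tnnc2 had -0.58 (adjusted p = 0.0542) and -0.48 (0.0564), missing the threshold, and each was called lower under 7 of 16 alternatives, DESeq2 and RLE size factors among them. Slow myosin, Myh7, was not called, at 76, 124, 75.3 and 105 CPM in WT MTE and 176, 69.1, 250.3 and 164 CPM in WT Sham (adjusted p = 0.268). Myl6b, an essential light chain of slow and embryonic muscle, rose 11.3-fold beside Myl1, which was not called. Actc1, cardiac actin, rose (1.82), and Acta1 was not called (adjusted p = 0.865). Actn1, the alpha-actinin of nonmuscle cells, rose (1.91) while Actn3, restricted to fast fibres, fell (-1.25). Among adult fast fibre genes as a list, 11 of 20 fell and 0 rose (median -0.70), with Mylk4 (-2.05) and Ppp1r3a (-1.66) among the larger decreases. Myh1 and Myh2, the other adult fast myosins, were not called (log2 fold changes 0.026 and 0.46). At least 1 fit without 1 library lost the call of Tnni1 (2 of 8 fits, adjusted p = 0.056 without WT Sham 2). Called without 1 library, though not with all 8, were Tnni2 (log2 fold change -0.64, adjusted p = 0.04 without WT Sham 1) and Tnnc2 (log2 fold change -0.54, adjusted p = 0.0411 without WT Sham 1).

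Pairs outside the sarcomere included ribosomal proteins and enzymes. Rpl3, the general form of a large-subunit ribosomal protein, was at 249, 232, 272 and 240.0 CPM in WT MTE and 179.7, 77.3, 85.8 and 91.2 CPM in WT Sham, and Rpl3l, its muscle form, at 80.9, 66.8, 67.3 and 61.8 CPM in WT MTE and 128, 150.4, 165 and 161 CPM in WT Sham. Neither gene overlapped between groups, and the forms moved in opposite directions (1.19, SE 0.29, and -1.13, SE 0.25), with the limit that Rpl3 shares reads with pseudogenes. Ampd2 and Ampd1, broad and muscle forms of AMP deaminase, had 1.23 and -1.49, and Pygb and Pygm, brain and muscle glycogen phosphorylase, 0.76 and -1.23. Slc25a5 and Slc25a4, adenine nucleotide translocases, had 0.79 and -0.88, and Cpt1a and Cpt1b, the liver and muscle forms of the enzyme that admits fatty acids to mitochondria, 1.00 and -0.81. For Eno1 and Eno3 (enolase), Pgam1 and Pgam2 (phosphoglycerate mutase) and Ckb and Ckm (creatine kinase) the ratio was higher in WT MTE by 1.65, 1.48 and 1.52 on the log2 scale, although none of these 6 genes was called by itself with all 8 libraries. Pairs with no call on the ratio included Myl2 and Mylpf (-0.034, adjusted p = 0.943), Slc16a1 and Slc16a3 (-0.35, 0.469) and Chrng and Chrne, the fetal and adult acetylcholine receptor subunits (1.75, 0.0675). Broad forms are also made by the nonfibre cells of the muscle, whose markers are given with each group, and the part of those cells in the ratios was not tested. The calls of Ampd2 (2 of 8 fits, adjusted p = 0.0516 without WT Sham 4), Pygb (6 of 8 fits, adjusted p = 0.0952 without WT Sham 2) and Slc25a5 (6 of 8 fits, adjusted p = 0.124 without WT Sham 2) did not hold without 1 library. Not called with all 8 libraries but called without 1 were Eno1 (log2 fold change 1.499, adjusted p = 0.00215 without WT Sham 1), Pgam1 (log2 fold change 1.66, adjusted p = 1.07e-04 without WT Sham 1), Slc16a1 (log2 fold change -0.49, adjusted p = 0.0406 without WT Sham 1) and Chrng (log2 fold change 2.40, adjusted p = 0.039 without WT MTE 4 and log2 fold change 2.90, adjusted p = 0.022 without WT Sham 1).

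Among calcium handling and membrane excitability genes, 20 of 52 fell, 5 rose, and the median was -0.34. Pvalb, parvalbumin, the calcium buffer of fast fibres, was at 1156, 1094, 1007 and 565 CPM in WT MTE and 2562, 2848, 3275 and 3061 CPM in WT Sham, without overlap (adjusted p = 4.41e-04). Components of the release unit fell by less than 2-fold, with Ryr1, the release channel, at -0.81, its voltage sensor Cacna1s at -0.52 and the junction protein Jph1 at -0.95. Clcn1, the chloride channel that steadies the membrane (-1.32), Scn4b (-1.48) and Kcnj2 (-1.13) fell further. Among the 5 that rose (8 without WT Sham 1) were Casq2, the cardiac and slow calsequestrin (1.13), Sln, sarcolipin, an inhibitor of the calcium pump (1.79), Kcnn3, a calcium-activated potassium channel of fetal and denervated muscle (1.38), and the stretch-gated channel Piezo2 (1.59). Genes of the nerve-muscle junction and denervation gave 6 of 30 higher and 0 lower (9 and 2 without WT Sham 1), among them Runx1 (2.30), Phldb2, Myog, Ncam1 (1.56) and Sln. The receptor subunit Chrna1 was not called (65.2, 53.6, 70.6 and 59.5 CPM in WT MTE, 55, 25.7, 22.8 and 21 CPM in WT Sham, adjusted p = 0.0935). Leaving out 1 library ended the calls of Ryr1 (6 of 8 fits, adjusted p = 0.119 without WT MTE 2), Cacna1s (5 of 8 fits, adjusted p = 0.114 without WT MTE 2) and Sln (6 of 8 fits, adjusted p = 0.093 without WT Sham 2). Called without 1 library, though not with all 8, was Chrna1 (log2 fold change 1.38, adjusted p = 0.016 without WT Sham 1).

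Among cytoskeletal genes, 31 of 56 rose and 0 fell (median 1.14). They included the tropomyosin Tpm4 (1.79), the nonmuscle myosins Myh9 (1.45) and Myh10 (1.25), the intermediate filament nestin, Nes, of regenerating fibres and progenitors (1.55), and 7 of the tubulin genes, of which Tubb2b (2.52) and Tubb6 (2.09) rose most. Tubulin genes are near copies of each other and their separate values are uncertain. Of 47 myogenic regulator and fusion genes, 11 rose, 3 fell and 33 were not called (median 0.099). The share that fell was below the 11.2% of all genes tested. Myog, myogenin, was at 24.4, 17.9, 20.6 and 17.4 CPM in WT MTE and 7.98, 3.93, 5.03 and 2.58 CPM in WT Sham, and the fusion proteins Mymk (2.26) and Mymx (2.43) rose with it. The homeobox factor Six4 (-0.98) and its partner Eya1 (-1.27) fell. Pax7, which defines satellite cells, was at 2.09, 2.72, 1.4 and 1.18 CPM in WT MTE and 1.73, 1.8, 1.72 and 1.91 CPM in WT Sham and was not called. The 11 satellite cell markers had 2 higher, Vcam1 and Megf10, and 0 lower (1 without WT Sham 1). Not all calls held without 1 library, the exceptions being Myh9 (4 of 8 fits, adjusted p = 0.062 without WT Sham 2), Mymk (6 of 8 fits, adjusted p = 0.0951 without WT MTE 1), Mymx (1 of 8 fits, adjusted p = 0.0514 without WT Sham 4) and Vcam1 (2 of 8 fits, adjusted p = 0.0607 without WT Sham 3).

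Genes of cell division rose. Of 47 mitosis genes 40 rose (median 1.91), and in 42 every WT MTE library lay above every WT Sham library. Cdk1, the mitotic kinase, was at 5.58, 10.03, 8.72 and 8.6 CPM in WT MTE and 2.58, 0.451, 0.377 and 1.64 CPM in WT Sham. Hmmr, a hyaluronan and spindle protein (2.84), and Prc1, of the spindle midzone (2.53), rose too. Pttg1, securin, was the exception and fell, with 19.6, 17.9, 18 and 15 CPM in WT MTE and 29.2, 45, 44.2 and 41 CPM in WT Sham. Of 40 replication genes 19 rose and 0 fell (1 without WT Sham 1; median 0.74), among them Rrm2 (1.82) and Mcm6 (1.38). The difference between these lists was not tested. Ccnd1 (1.70) and Ccnd2 (1.18), cyclins of the G1 phase, rose and the inhibitor Cdkn1b fell (-0.68). Bulk RNA does not show which cells divided. Lost on leaving out 1 library was the call of Cdkn1b (2 of 8 fits, adjusted p = 0.0636 without WT Sham 4).

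Among growth signals, the IGF axis is given first. Igf1, insulin-like growth factor, was at 183, 336, 238 and 133 CPM in WT MTE and 44.9, 39.2, 24.5 and 36.9 CPM in WT Sham, without overlap (log2 fold change 2.61, SE 0.28, adjusted p = 3.14e-05). Its relative Igf2 (2.03), the protease Pappa that frees it from binding proteins (1.97), Igfbp7 (1.65) and Igfbp4 (1.93) rose, and the insulin receptor gene Insr fell (-0.54), which gives 10 of 20 higher and 1 lower. Other secreted factors that rose were Apln, apelin (2.94), Nrg1, neuregulin (3.42), Lif, leukemia inhibitory factor (2.98), Hgf, which activates satellite cells (1.96), and Angptl4 (2.43). Il15 (-1.33), Ostn, musclin (-1.40), and Fndc5, the precursor of irisin (-1.02), fell. Of 50 ribosome biogenesis genes 2 rose, Myc (1.67) and Polr1e (0.57), and 1, Taf1d, fell, a share below that over all genes. Of 22 cytoplasmic tRNA synthetase genes 0 rose and 1, Farsb, fell. Without WT Sham 1, 6 ribosome biogenesis genes were lower and 3 higher, and 4 tRNA synthetase genes were lower and 1 higher. For tRNA synthetases the median was -0.069 and for ribosome biogenesis 0.077. Regulators of mTORC1, the kinase complex that couples growth signals to translation, had 9 of 43 lower and 1, Rragc, higher. Without WT Sham 1 these were 14 lower and 4 higher. The decreases fell on inhibitors, Ddit4l (-2.05), Sesn1 (-0.90), Tsc1 (-0.62), Deptor (-0.51), Akt1s1 (-0.53) and the translation repressor Eif4ebp2 (-0.66), and on activators, Rragd (-1.16), Rragb (-1.49) and Akt2 (-0.65). Mtor itself was at 66.2, 42.4, 46.3 and 49.1 CPM in WT MTE and 63.1, 43.9, 44.5 and 41.5 CPM in WT Sham and was not called. At least 1 fit without 1 library lost the calls of Insr (4 of 8 fits, adjusted p = 0.0808 without WT MTE 3), Ostn (1 of 8 fits, adjusted p = 0.0531 without WT Sham 4), Polr1e (3 of 8 fits, adjusted p = 0.0745 without WT MTE 1), Farsb (6 of 8 fits, adjusted p = 0.122 without WT Sham 2), Deptor (5 of 8 fits, adjusted p = 0.12 without WT Sham 2) and Akt1s1 (6 of 8 fits, adjusted p = 0.0896 without WT Sham 3).

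Ubiquitin ligases and FoxO factors, a list of textbook genes of muscle wasting and of other ligases, had 14 of 42 lower and 0 higher. Fbxo32, atrogin-1, was at 164, 138, 279.7 and 206 CPM in WT MTE and 378, 556, 1215 and 1357 CPM in WT Sham, with no overlap (log2 fold change -2.15, SE 0.45, adjusted p = 0.00337). Trim63, MuRF1, its usual companion, was at 277, 73.4, 118 and 108 CPM in WT MTE and 207, 99.2, 319 and 416 CPM in WT Sham and was not called (adjusted p = 0.159). The ASB ligase subunits Asb14 (-1.87), Asb15 (-1.60) and Asb4 (-1.44) fell further than Foxo4 (-1.16), while Foxo1 and Foxo3 were not called (-0.33 and -0.31). Known glucocorticoid targets share Fbxo32, Klf15 and other members with this list: 6 of 24 fell, among them Klf15 (-1.42), Klf9 (-1.15) and Gpt2 (-1.89), Angptl4 and Mt1 rose, and Fkbp5, a widely used marker of that receptor, was not called (132, 41, 65 and 92.5 CPM in WT MTE, 172, 57, 111 and 90.3 CPM in WT Sham). The call of Mt1 (5 of 8 fits, adjusted p = 0.234 without WT MTE 1) did not hold without 1 library. Called without 1 library, though not with all 8, was Trim63 (log2 fold change -1.38, adjusted p = 0.0251 without WT MTE 1).

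Genes of oxidative metabolism fell in number. Of 40 citrate cycle and pyruvate genes, 28 fell and 3 rose (median -0.68). Those that rose were Pdk3 (1.37), a kinase that shuts pyruvate dehydrogenase, Me2 (0.75) and Pck2 (0.63). Idh2, the mitochondrial NADP-linked isocitrate dehydrogenase (-1.33), had the largest fold decrease of those called. Breakdown of branched-chain amino acids and use of ketones had the lowest median of all lists other than cell type markers, -0.79, with 21 of 28 lower and 1 higher. Aldh6a1, a dehydrogenase of valine breakdown, was at 81.3, 71, 81.2 and 89.4 CPM in WT MTE and 156, 272, 235 and 236 CPM in WT Sham. The decreases included the mitochondrial transaminase Bcat2 (-0.85), the dehydrogenase subunits Bckdhb (-1.17) and Dbt (-1.10) and propionyl-CoA carboxylase, Pcca (-0.96). The exception was Bcat1, the cytosolic transaminase of growing cells, at 17.4, 16.3, 14.2 and 13.7 CPM in WT MTE and 1.09, 1.71, 1.64 and 2.58 CPM in WT Sham (log2 fold change 3.13, SE 0.30, adjusted p = 1.30e-05). Of 47 fat uptake and oxidation genes 15 fell, led in size by Lpl, lipoprotein lipase (-1.39), and 2, Angptl4 and Cpt1a, rose (20 and 5 without WT Sham 1). Glycogen genes had 9 of 27 lower, among them Phkg1, a subunit of phosphorylase kinase (-1.65). Prkaa2 (-1.32), Prkab2 (-1.31) and Prkag3 (-0.98), the subunits of the AMP kinase form typical of skeletal muscle, fell. Ppargc1a, the coactivator of mitochondrial genes, was not called (44.7, 24.8, 21.4 and 30.8 CPM in WT MTE, 42.6, 62.7, 39 and 38.1 CPM in WT Sham). Leaving out 1 library ended the calls of Me2 (7 of 8 fits, adjusted p = 0.117 without WT Sham 3), Pck2 (6 of 8 fits, adjusted p = 0.107 without WT Sham 3) and Bcat2 (1 of 8 fits, adjusted p = 0.0566 without WT MTE 4).

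In amino acid synthesis, 9 of 37 genes rose and 7 fell. Leaving out WT Sham 1 gave 14 and 9. The serine pathway enzymes Phgdh (1.88) and Psat1 (1.98) rose with Mthfd2 (1.45) and Asns, asparagine synthetase (1.46). The proline pathway enzymes Aldh18a1 (2.31) and Pycr1 (1.85) rose, while Prodh, which degrades proline (-1.07), and Oat, which feeds ornithine into the same intermediate (-1.06), fell. Aldh18a1 was at 26.6, 29.4, 22.5 and 14.8 CPM in WT MTE and 5.8, 4.54, 3.44 and 4.99 CPM in WT Sham and Oat at 128, 127, 135 and 106 CPM in WT MTE and 225, 265, 284 and 258 CPM in WT Sham. Collagen is known for its high content of proline and glycine. Chac1, a target of the same ATF4 factor that drives Asns and Psat1, fell (-2.96, SE 0.36), so members of that target set moved in both directions. In polyamine synthesis, Odc1 (0.83), Srm (1.60) and the antizyme inhibitor Azin2 (2.30) rose and Amd1 fell, with 86.6, 73.2, 51.4 and 59.8 CPM in WT MTE and 115, 283, 224 and 319 CPM in WT Sham.

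Calls on immune genes depended on WT Sham 1, whose macrophage marker sum is given above. With it, 4 of 18 macrophage markers were called higher (Trem2, Mrc1, Gpnmb and Lyve1), and without it all 18, with medians of 0.85 and 2.10. Trem2, a receptor of lipid-laden macrophages, was at 6.69, 9.6, 12.7 and 4.53 CPM in WT MTE and 2.26, 0.677, 0.671 and 0.47 CPM in WT Sham, and WT Sham 1 did not reach the overloaded libraries. Cd68 was at 27.4, 27.7, 43.8 and 44 CPM in WT MTE and 38.6, 2.84, 3.14 and 4.96 CPM in WT Sham, and there WT Sham 1 did. Chemokines and their receptors had 10 of 37 higher, among them Cxcl14 (2.52), Ccl7 (2.99) and Ccl2 (2.72), and 25 without that library. Interferon response genes had 0 of 42 higher and 3 lower (Gbp10, Gbp6 and Igtp), against 24 higher and 1 lower without it. The direction of this list's median changed too, -0.20 with and 0.90 without. Igtp was at 39.4, 16.7, 17.1 and 26.3 CPM in WT MTE and 881, 21.1, 17 and 13.5 CPM in WT Sham. Neutrophil, lymphocyte and mast cell markers had 0 called members (1 lymphocyte marker was called higher without WT Sham 1). However, 10 of the 16 lymphocyte markers, Cd3e among them, were not among the genes tested, so their levels are not known here. Adipocyte markers had 0 of 11 called with all libraries and 3 lower without WT Sham 1 (median -0.97 with and -0.97 without it), with sums of 2982, 2340.3, 2708 and 3094 CPM in WT MTE and 3798, 4627, 3928 and 3595 CPM in WT Sham. Not all calls held without 1 library, the exceptions being Gpnmb (6 of 8 fits, adjusted p = 0.212 without WT MTE 3), Lyve1 (5 of 8 fits, adjusted p = 0.118 without WT Sham 3), Gbp6 (3 of 8 fits, adjusted p = 0.112 without WT Sham 1) and Igtp (5 of 8 fits, adjusted p = 0.3 without WT Sham 1). Called without 1 library, though not with all 8, was Cd68 (log2 fold change 3.25, adjusted p = 1.28e-04 without WT Sham 1).

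Some genes were close to silent in sham muscle. In 22 genes the 4 WT Sham libraries held at most 3 counts together while every WT MTE library held 3 or more and the gene was called. Among them were the granzymes Gzmd and Gzmc, serine proteases of a cluster on chromosome 14. Gzmd had 216, 89, 41 and 5 counts in WT MTE 1 to 4 and 0 in each WT Sham library. Its mean of 2.05 CPM in WT MTE was 86.4 times a floor of 3 counts over the summed WT Sham libraries (0.0237 CPM). WT MTE 1 was at 5.13 CPM and WT MTE 4 at 0.19 CPM, so this ratio of the mean does not hold for each library. Gzme, of the same cluster, had 364, 155, 84 and 11 counts in WT MTE and 0, 3, 1 and 1 counts in WT Sham. The overloaded libraries varied widely, with WT MTE 1 highest and WT MTE 4 lowest for Gzmd and Gzme, and near-identical granzyme genes may share reads. Gzma and Gzmb, the granzymes of killer lymphocytes, were not called: Gzma had 15, 16, 12 and 11 counts in WT MTE and 82, 3, 3 and 7 counts in WT Sham, and Gzmb 15, 11, 27 and 4 counts in WT MTE and 122, 10, 4 and 2 counts in WT Sham. WT Sham 1 was far above the other sham libraries for both, and the fold changes were positive without it. Called without 1 library, though not with all 8, was Gzma (log2 fold change 1.21, adjusted p = 0.0216 without WT Sham 1).

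Of the remaining lists, circadian clock genes had 0 of 25 higher and 3 lower, Rora (-0.75) and Tef (-0.67) among them. The lower count was near the 11.2% of all genes tested. Without WT Sham 1, 5 were lower, beside 17.6% of all genes. Arntl and Nr1d1 were not called (adjusted p = 0.732 and 0.461). Endothelial markers had 1 of 12 higher, Pecam1 (0.39), and 0 lower (3 and 2 without WT Sham 1), with a sum of 511, 590.3, 492 and 423 CPM in WT MTE and 443, 449.6, 441 and 439 CPM in WT Sham. Among vessel signals, Hif1a (1.51), Apln and its receptor Aplnr (1.86) rose and the receptor Flt1 fell (-0.64), while Vegfa was at 97.7, 59.3, 52.3 and 44.2 CPM in WT MTE and 98.3, 94.3, 92.6 and 84.3 CPM in WT Sham and was not called. Immediate early genes, which answer fresh stimuli, had 16 of 31 higher and 1, Mycn, lower, among them Egr1 (1.49), Fos (1.20) and Atf3 (1.58). Imprinted genes had 15 of 31 higher and 3 lower. Mest was at 75.4, 211, 126 and 32.4 CPM in WT MTE and 3.86, 5.83, 3.73 and 3.11 CPM in WT Sham, and Rian and Meg3, noncoding RNAs of one locus, had 2.36 and 1.93. Schwann cell markers had Ngfr (1.66) and Scn7a (1.21) higher and Cdh19 (-0.75) lower of 12 (2 lower without WT Sham 1), and the myelin gene Mbp was not called. With all 8 libraries, the Schwann cell and endothelial counts were near or below the 14.1% higher and 11.2% lower of all genes. Lost on leaving out 1 library were the calls of Rora (4 of 8 fits, adjusted p = 0.0637 without WT Sham 2), Tef (3 of 8 fits, adjusted p = 0.093 without WT Sham 2), Pecam1 (1 of 8 fits, adjusted p = 0.0543 without WT MTE 2), Flt1 (2 of 8 fits, adjusted p = 0.0528 without WT MTE 3), Mycn (5 of 8 fits, adjusted p = 0.142 without WT Sham 4), Fos (5 of 8 fits, adjusted p = 0.184 without WT MTE 1) and Cdh19 (6 of 8 fits, adjusted p = 0.129 without WT MTE 3). Not called with all 8 libraries but called without 1 was Vegfa (log2 fold change -0.83, adjusted p = 0.0497 without WT MTE 1).

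Whether the response was particular to WT muscle was asked with the interaction of genotype and surgery. EdgeR called 0 of 17212 genes (0%) and DESeq2 called 10. At an unadjusted p under 0.05 edgeR had 605 genes, a share below the 0.05 that chance alone would give. A count of 0 does not show that the responses were equal. KO muscle has its own control libraries. Its log2 fold changes of overload were 4.53 for Postn, 3.74 for Ankrd1, 3.33 for Tnnt2, -1.77 for Myh4 and -1.98 for Fbxo32. In WT muscle these were 5.37, 3.10, 2.69, -1.73 and -2.15. Actn3 differed more, at -0.17 in KO and -1.25 in WT muscle (edgeR interaction, adjusted p = 0.989). The authors' deposited table has a column of adjusted p-values headed as the comparison of WT sham with WT MTE, but in all 17217 of its genes the value equals that in the column headed WT MTE vs KO MTE. It was therefore not used for the overload response.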

How the data were processed

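RNA-seq was run on plantaris muscle of the 4 groups, on ribosomal RNA-depleted total RNA per the labels' protocols. The deposited count table holds estimated counts per gene: 90.9% of values lay within 0.01 of a whole number, and STAR, RSEM and edgeR with GRCm38 are named in the submitters' processing notes. The sources used here do not say if reads were counted by strand. KO Sham has 3 columns for 4 labelled samples, and which sample has none was not resolved. The authors' deposited comparison table holds log2 values relative to WT Sham and p-values, and was used only to check its columns.

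Estimated counts were rounded and genes named by GENCODE M21 identifiers (15 of 17230 had no symbol). Genes were filtered with filterByExpr, scaled by TMM and fitted with edgeR 4.0.16 (quasi-likelihood, robust) as 4 group means over 15 libraries. The contrast was WT MTE minus WT Sham, with Benjamini-Hochberg adjustment over 17212 genes at 0.05, and the fit was tested on simulated data. CPM are TMM-scaled. SE is the log2 fold change divided by the root of the F statistic. No pair of libraries was a near copy of another. Alternatives used DESeq2 1.42.0 and limma 3.58.1 in R 4.3.3. A depth of 26.5 M or more counts per WT library limits precision mainly for genes of few reads.

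The gene lists, pairs and tests were chosen with earlier results of these data known. Genes named are, per list, called members with the smallest adjusted p, members of highest CPM and members against the majority, together with the genes of largest change, the pairs and Trim28. Of 316 genes named, 93 fall outside that rule and were chosen after their values were seen, mostly to complete a family. Some genes that the rule names, and 1 pair in the plot of pairs, are not reported here. Promoter sequences are from RefSeq (GRCm38.p6).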

Additional observations from a re-analysis of the deposited data

Results flagged for a closer look

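In 66 of 638 sets of 4 libraries (a gene named above, or a share of counts, in 1 WT group) 1 library lay farther from its nearest neighbour, as a part of the whole range, than Dixon's 95% critical value. Chance alone flags about 1 in 20 such sets. WT Sham 1 was the library in 45 of them, and no explanation was tested. WT MTE 1 stood above the other libraries of its group, in CPM, for Acvr1b (33, others 25.2 to 26.1), Klf15 (15.2, others 6.36 to 7.52), Mt1 (115, others 9.52 to 24.3), Slc16a1 (93.7, others 62.3 to 67.7), Timp4 (34.7, others 16.1 to 18.8) and Vcam1 (32.1, others 24.8 to 25.7). WT MTE 3 stood above the other libraries of its group, in CPM, for Acvr2b (3.06, others 2.25 to 2.33) and Nppa (0.427, others 0.095 to 0.128). WT MTE 3 stood below the other libraries of its group, in CPM, for Tead1 (73.3, others 107 to 109.7). WT MTE 4 stood below the other libraries of its group, in CPM, for Azin2 (1.18, others 3.32 to 3.76), Bcat2 (6.96, others 12.1 to 12.5), Myh8 (87.3, others 201 to 217) and Pck2 (7.12, others 10.4 to 10.7). WT Sham 1 stood above the other libraries of its group, in CPM, for Anxa2 (178, others 56.6 to 69.1), Azin2 (1.17, others 0.355 to 0.47), Bcat2 (24.8, others 17.6 to 18.5), Ccl2 (5.24, others 0.294 to 0.709), Ccl7 (3.8, others 0.323 to 0.516), Cd68 (38.6, others 2.84 to 4.96), Chrna1 (55, others 21 to 25.7), Chrng (1.3, others 0.294 to 0.352), Eno1 (121, others 35.5 to 37.9), Foxo1 (55.7, others 25 to 29.1), Gbp10 (521, others 14.4 to 46.8), Gbp6 (613, others 25.4 to 49.4), Gzma (2.18, others 0.0967 to 0.205), Gzmb (3.24, others 0.0587 to 0.322), Igtp (881, others 13.5 to 21.1), Itga5 (35, others 7.78 to 10.9), Ldha (1590.4, others 1309 to 1336), Loxl1 (9.2, others 2.9 to 3.69), Lyve1 (40.3, others 12.3 to 16.7), Mt1 (20.1, others 2.8 to 3.76), Mtor (63.1, others 41.5 to 44.5), Myh10 (78.1, others 36.1 to 37.6), Myh9 (217, others 67.7 to 76.1), Myl6b (2.13, others 0.558 to 0.677), Pgam1 (40.4, others 9.02 to 13.4), Plod1 (47.9, others 19.1 to 21), Plod3 (29, others 8.09 to 10.8), Psat1 (8.005, others 2.87 to 2.94), Rpl3 (179.7, others 77.3 to 91.2), Rragc (35.2, others 26.2 to 27.1), Slc16a3 (105, others 44 to 54), Sln (43.3, others 4.82 to 9.57), Tgfb1 (6.62, others 1.8 to 1.93), Tgfbr2 (91.6, others 47.8 to 54.8), Timp1 (8.46, others 1.93 to 2.96), Timp4 (57.8, others 37.1 to 38.1), Trem2 (2.26, others 0.47 to 0.677) and Tubb6 (49.8, others 8.1 to 12.8). WT Sham 1 stood below the other libraries of its group, in CPM, for Klhl33 (61.4, others 158 to 173), Mstn (40.6, others 96.5 to 102), Pappa (3.78, others 4.44 to 4.58), Pecam1 (112, others 124 to 125), Piezo2 (5.27, others 10.8 to 11.8) and Rragb (1.3, others 2.68 to 2.9). WT Sham 2 stood above the other libraries of its group, in CPM, for Ccnd2 (23.9, others 18.8 to 19.4), Clcn1 (188, others 114 to 124), Myh4 (36281, others 32413 to 32926) and Mylk4 (455, others 173 to 205). WT Sham 3 stood above the other libraries of its group, in CPM, for Akt1s1 (16.5, others 14.4 to 14.7). WT Sham 3 stood below the other libraries of its group, in CPM, for Loxl2 (24.3, others 31 to 31.3). WT Sham 4 stood above the other libraries of its group, in CPM, for Angptl4 (10.5, others 1.19 to 2.71) and Fbn2 (3.11, others 2.45 to 2.52). The share of mitochondrially encoded genes was 6.95 percent in WT Sham 1, against 13.3 to 14.4 percent in the other 3 sham libraries.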

How the results depend on the processing

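The counts of genes called stayed within 1.5 times of the reported ones with RLE size factors, DESeq2, limma voom, both other filters and WT libraries only. Of the other filters, using none could change little, because 17212 of the 17230 genes deposited passed the reported one. The balance of directions turned as given above with RLE size factors, DESeq2 and the 1 CPM filter. Voom with sample quality weights gave WT Sham 1 a weight of 0.242 and called 4832 higher, 3629 lower, 2687 at least 2-fold higher and 887 at least 2-fold lower. With 1 library left out, the counts ran from 1742 to 3674 higher, 1246 to 3021 lower, 1170 to 2455 at least 2-fold higher and 437 to 928 at least 2-fold lower. The highest of each came without WT Sham 1, and the lowest count of genes lower (1246) without WT Sham 2. The collagen share differed by 1.54 to 2.22 percentage points and the mitochondrially encoded share by -6.14 to -3.65 percentage points when 1 library was left out, and the mitochondrially encoded difference passed the threshold without WT Sham 1 (exact permutation p = 0.0286). The paralog count ran from 0 to 30 pairs, with 0 without each WT MTE library. For the interaction with genotype the reported count was 0 and DESeq2 gave 10.

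Same-numbered libraries did not deviate together in every pair: their correlations were 0.314, 0.171, -0.008 and 0.166, so the numbers were not taken to pair samples. A fit to WT libraries with the replicate block called 2167 higher, 2053 lower, 1305 at least 2-fold higher and 616 at least 2-fold lower, against 1929 higher, 1922 lower, 1232 at least 2-fold higher and 617 at least 2-fold lower without the replicate block. Against the reported fit, 21 named genes lost their call and 4 gained one with WT libraries only, and 21 lost and 7 gained with the block as well. The genes were not all the same. Ankrd1 (edgeR with the block, adjusted p = 0.0504), Adamts15 (0.0709), Cpt1a (0.0915), Dkk3 (0.0539), Gbp10 (0.0772) and Itga11 (0.0782) lost the call with the block alone. The cause of these losses was not tested.

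Of 273 called genes named above, 58 lost the call without at least 1 library and 65 under at least 1 setting. The sign of 10 named genes turned under some setting. It turned with DESeq2 Myh1 (-0.034) and Pax7 (-0.012), with RLE size factors Myh1 (-0.034) and Pax7 (-0.018), with WT libraries only Myh1 (-0.0062), with the replicate block Pax7 (-0.055), with the 1 CPM filter Myh1 (-0.0033), with limma voom Gzma (0.14) and with voom quality weights Gzma (0.81), Gzmb (1.22), Igtp (0.072), Myl2 (-0.18), Pax7 (-0.034) and Slc16a3 (0.20). With 1 library left out, log2 fold changes ran from -0.16 to 0.49 for Acta1, from -0.52 to 0.039 for Arntl, from -1.30 to 1.21 for Gzma, from -1.92 to 0.90 for Gzmb, from -3.62 to 0.48 for Igtp, from -0.072 to 0.19 for Mtor, from -0.11 to 0.29 for Myh1, from -0.091 to 0.28 for Myl2, from -0.20 to 0.21 for Pax7 and from -0.27 to 0.25 for Slc16a3. Of these genes only Igtp was called in the reported fit. The cause of these differences was not tested. Genes with few reads, such as the granzymes, have the least certain values, and intervals of counting error do not cover differences between mice.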
